A study of Rattus norvegicus with 4 samples.

Results

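The genes described here are the cyclin-dependent kinase inhibitors of the Cdkn1 family (Cdkn1a, Cdkn1b and Cdkn1c) and of the Cdkn2 family (Cdkn2a, Cdkn2b, Cdkn2c and Cdkn2d), together with Mdm2 and Rb1. Probe sets were taken where the platform annotation gave exactly 1 of these symbols, which yielded 15 probe sets for 9 of 9 genes, among 31042 probe sets and 14217 genes in all. Cdkn2a and Cdkn1c were chosen because they differed in opposite directions between the epithelia studied, and the set was drawn up with this contrast in view. The genes were thus selected on the peri-implant minus junctional difference in log2 signal, and their values are given as a description, with no test.

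Expression was measured in 4 samples of oral epithelium captured by laser microdissection. Of these, 2 came from junctional epithelium, the collar of epithelium that attaches the gingiva to the tooth, and 2 from peri-implant epithelium, which lines the soft tissue against a titanium alloy implant set in place of an extracted upper first molar. All samples came from male Sprague Dawley rats that were 4 weeks old at surgery and were killed 4 weeks after the implant was placed. The labels give tooth extraction and implant placement as the treatment of both groups, so the junctional samples carry that label too. In all, 20 rats were killed. The labels do not say how many contributed to a sample or whether the samples of a group came from separate animals, so the spread between the 2 arrays of a group may be technical.

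Progress from G1 into S phase is driven by cyclin D with Cdk4 and Cdk6 and by cyclin E with Cdk2, which phosphorylate the retinoblastoma protein Rb1 and so release E2F transcription factors. The Cdkn2 proteins bind Cdk4 and Cdk6 and block them, while the Cdkn1 proteins bind a wider range of cyclin and kinase complexes. Cdkn1a is a direct target of p53, and Mdm2 is the ubiquitin ligase that keeps p53 low. In stratified epithelium these inhibitors accompany the exit of keratinocytes from the cycle, and Cdkn2a is widely used as a marker of senescence.

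Signals are on a log2 scale, where a difference of 1 is a 2-fold change of the linear signal. As background level served 6.42, the brightest value that any of 27 probe sets for bacterial control genes reached. Between 54.6% and 56.8% of probe sets exceeded it on each array, and signals below it have no reliable order. With 2 arrays in each group, their number limits the precision. The median SD between replicate arrays was 1.47 for genes with a mean signal up to 3, 0.22 for means between 7 and 9, 0.12 between 9 and 11 and 0.079 above 11. Markers of basal keratinocytes were above background for 8 of 8 measured genes, whereas the enamel matrix genes Ambn and Amelx, the only measured markers of enamel organ and junctional epithelium, were below it on every array, so these markers cannot tell whether the junctional samples were of that type. Gapdh probe sets at the 3' end exceeded those at the 5' end, a measure of RNA integrity, by 0.58 to 0.68 in junctional and 0.52 to 0.53 in peri-implant samples. For Actin the peri-implant arrays gave 1.26 and 1.37 by the same measure, and the junctional ones 1.30 and 1.47.

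Of the Cdkn2 family, Cdkn2c was lower in peri-implant epithelium, and the dimmer Cdkn2d probe set gave overlapping groups. The start regions of the 3 genes whose brightest probe set was higher in peri-implant epithelium are shown first. Each runs from 250 bases before to 50 bases after the start listed in RefSeq on the rat assembly GRCr8, 5′ to 3′ on the gene's own strand. Capitals mark the GC box GGGCGG on either strand, the letters bound by Sp1-type factors. The Cdkn2a window lies at chr5:109107907-109108206, the Cdkn2b window at chr5:109134806-109135105 and the Cdkn2d window at chr8:28110760-28111059, all on the minus strand. In this assembly Cdkn2a and Cdkn2b are neighbours on chromosome 5, and the Cdkn2a window lies inside the span of the gene.
Cdkn2a: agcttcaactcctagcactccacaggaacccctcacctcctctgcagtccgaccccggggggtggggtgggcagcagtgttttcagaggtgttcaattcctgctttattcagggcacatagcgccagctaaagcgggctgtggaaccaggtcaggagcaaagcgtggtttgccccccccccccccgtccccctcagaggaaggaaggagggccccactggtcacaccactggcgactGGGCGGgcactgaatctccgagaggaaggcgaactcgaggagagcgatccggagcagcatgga
Cdkn2b: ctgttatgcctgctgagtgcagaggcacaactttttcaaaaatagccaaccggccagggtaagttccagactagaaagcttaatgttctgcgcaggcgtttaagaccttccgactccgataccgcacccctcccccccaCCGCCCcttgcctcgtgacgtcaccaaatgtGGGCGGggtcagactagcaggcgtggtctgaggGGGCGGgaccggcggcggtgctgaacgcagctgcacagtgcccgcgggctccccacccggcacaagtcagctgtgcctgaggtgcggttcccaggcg
Cdkn2d: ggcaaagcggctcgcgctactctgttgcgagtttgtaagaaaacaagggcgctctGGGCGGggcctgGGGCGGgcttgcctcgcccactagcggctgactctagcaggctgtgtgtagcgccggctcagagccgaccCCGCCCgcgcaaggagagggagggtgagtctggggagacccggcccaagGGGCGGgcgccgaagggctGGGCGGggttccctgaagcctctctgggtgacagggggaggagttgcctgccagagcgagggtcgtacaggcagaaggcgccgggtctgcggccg

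The Cdkn2a window held 1 GC box, that of Cdkn2b 3 and that of Cdkn2d 5, and 33.1% of the 33469 RefSeq windows of the same length held at least 1. Of the 9 genes, 8 had a listed window. Among the genes that were lower in peri-implant epithelium, the window of Cdkn1a held 0 GC boxes, those of Cdkn1b and Cdkn2c 1 each, that of Mdm2 2 and that of Rb1 6. The share of G and C was 62.3% for Cdkn2a, 62.3% for Cdkn2b and 69.7% for Cdkn2d, and it ran from 56.7% for Cdkn1a to 79.7% for Rb1 among the others, beside a median of 51.7% over all windows. The Cdkn2b window also held the cAMP response element TGACGTCA, found in 1.83% of all windows, and 2 copies of the E-box CAGCTG, found in 15.1%. None of the other 7 windows held either of these, and none of the 8 held the E-box CACGTG or the TATA box TATAAA, which 6.42% and 14.2% of all windows hold. All motifs were searched on both strands, no GC box overlapped another motif, and a match is a description of the letters only.

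Cdkn2a was measured in peri-implant epithelium and lay at the floor of the scale in junctional epithelium. The gene encodes p16Ink4a, an inhibitor of Cdk4 and Cdk6, and, from an alternative reading frame, p19Arf, which binds Mdm2. Its probe set read 0 on junctional array 1 and 1.28 on junctional array 2, against 7.83 on peri-implant array 1 and 7.14 on peri-implant array 2. Both peri-implant arrays were above background and both junctional arrays far below it, so the groups did not overlap. The measured means were 0.64 ± 0.91 and 7.48 ± 0.48 (mean ± SD, n = 2 arrays in each group, as for all means below), a difference of 6.84 on the log2 scale. Because the junctional signals carry no level, they were raised to background, which gives a peri-implant signal at least 2.09-fold higher. Which of the transcripts the probe set reads is not stated in the annotation used.

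Cdkn2b, the neighbouring gene, encodes p15Ink4b, a Cdk4 and Cdk6 inhibitor known as a target of TGF-beta. It read 8.32 and 8.66 on the junctional and 9.22 and 9.37 on the peri-implant arrays, all above background. The peri-implant arrays were the higher in every pairing, by 0.56 to 1.04. The group means were 8.49 ± 0.24 and 9.30 ± 0.10, a difference of 0.80 or 1.75-fold.

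Cdkn2d encodes p19Ink4d, another inhibitor of Cdk4 and Cdk6. Its brighter probe set read 10.23 and 10.41 on the junctional and 11.17 and 11.12 on the peri-implant arrays. There the peri-implant arrays were higher without overlap, with means of 10.32 ± 0.13 and 11.14 ± 0.03 and a difference of 0.83 or 1.77-fold. The dimmer probe set of the same gene did not share this pattern. It read 7.17 and 7.68 on the junctional and 7.06 and 7.53 on the peri-implant arrays, a difference of -0.13 with overlapping groups. The mean of both probe sets differed by 0.35.

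Cdkn2c, which encodes p18Ink4c, did not follow the other Cdkn2 genes. Its brighter probe set read 9.50 and 9.64 on the junctional and 9.44 and 9.41 on the peri-implant arrays. The groups did not overlap, but they lay only 0.14 apart on the log2 scale, or 1.11-fold, beside a junctional SD of 0.10, and the difference was -0.073 without junctional replicate 2. The dimmer probe set ran from 4.11 to 6.68, crossed the background level within each group and gave overlapping groups.

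**Figure D1:**
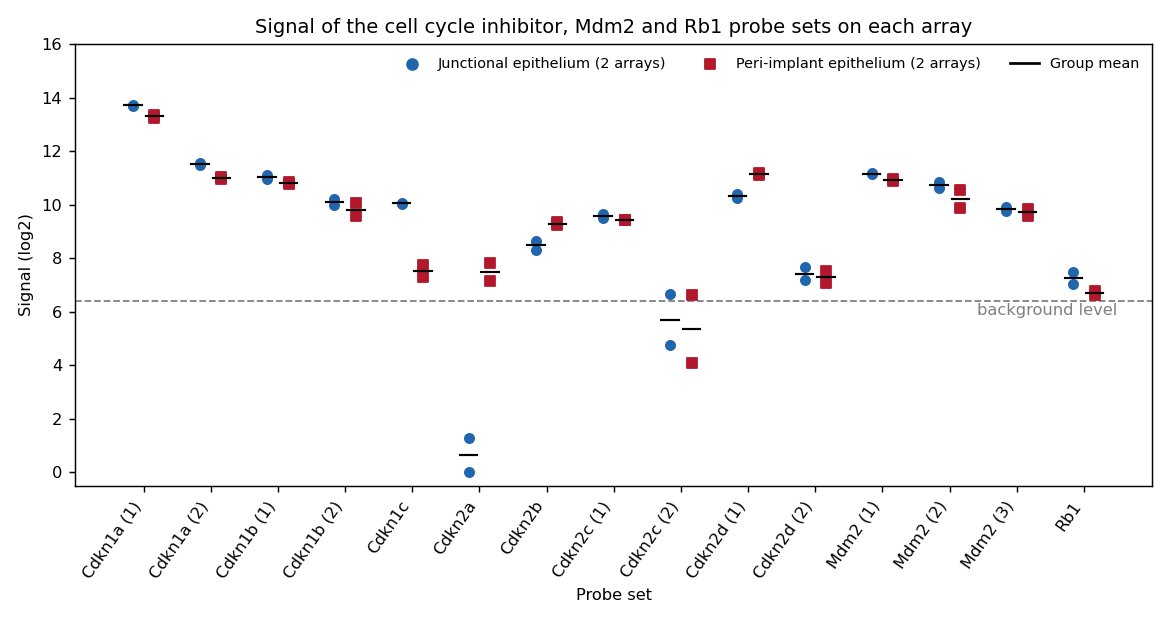
Signal (log2) of each of the 15 probe sets on each array, with 2 junctional arrays as circles, 2 peri-implant arrays as squares, group means as bars and the background level of 6.42 as a dashed line; numbers in brackets count the probe sets of a gene from the brightest. Cdkn2a lies at 0 and 1.28 in junctional epithelium and above background in peri-implant epithelium, and Cdkn1c drops from about 10.05 to 7.53.

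Cdkn1c, which encodes p57Kip2 from an imprinted domain, went the other way. It read 10.07 and 10.02 on the junctional arrays and 7.30 and 7.75 on the peri-implant arrays, all above background. The junctional arrays lay close together and every peri-implant array was lower, by 2.27 to 2.77 on the log2 scale. The means were 10.05 ± 0.04 and 7.53 ± 0.32, a difference of -2.52, which makes the junctional signal 5.74-fold higher. Leaving out single arrays moved this difference between -2.74 and -2.30. In captured tissue, fewer cells of a type and less RNA per cell cannot be told apart.

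Cdkn1a encodes p21Cip1, the inhibitor through which p53 halts the cycle. Its brighter probe set read 13.72 and 13.69 on the junctional and 13.35 and 13.24 on the peri-implant arrays. The second probe set read 11.54 and 11.46 against 11.03 and 10.97. Both probe sets were lower in peri-implant epithelium without overlap, with differences of -0.41 and -0.50, or 1.33-fold and 1.41-fold. The largest SD of a group was 0.07 for the brighter probe set and 0.06 for the second.

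Cdkn1b encodes p27Kip1, whose level is set largely by protein turnover. The brighter probe set read 10.95 and 11.11 on the junctional and 10.85 and 10.77 on the peri-implant arrays, a difference of -0.22 or 1.17-fold without overlap. The other read 10.00 and 10.22 against 10.05 and 9.56, and there the groups overlapped. The means differed in the same direction for both probe sets, and the nearest arrays of the groups lay 0.10 apart for the brighter one. Without junctional replicate 2 its difference was -0.14.

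Mdm2 had 3 probe sets, which all had lower means in peri-implant epithelium. The brightest read 11.15 and 11.16 on the junctional and 10.87 and 10.97 on the peri-implant arrays, a difference of -0.23. The second read 10.86 and 10.61 against 9.86 and 10.56, so its difference of -0.52 came with a peri-implant SD of 0.50. The third read 9.77 and 9.91 against 9.59 and 9.84, with overlapping groups. The 2 brighter probe sets thus separated the epithelia, the second of them by no more than 0.04 between its nearest arrays.

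Rb1, the pocket protein on which these inhibitors converge, read 7.05 and 7.49 on the junctional and 6.62 and 6.77 on the peri-implant arrays. All values stood above background, the peri-implant ones only just. The means were 7.27 ± 0.32 and 6.69 ± 0.11, a difference of -0.58 or 1.49-fold, and the nearest arrays of the groups lay 0.28 apart. Without junctional replicate 2 the difference was -0.35.

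Taking the brightest probe set of each gene, 8 of the 9 were above background on every array, all but Cdkn2a. Over the 9 genes, 3 were higher and 6 lower in peri-implant epithelium without overlap of the arrays. Over all 14217 genes, 56.3% had no overlap, 31.2% as higher and 25.2% as lower. The rule that chose the genes used this contrast, so nothing is read from their count. The median difference was -0.22 over the 9 genes and 0.05 over all genes. By size, 2 of the 9, Cdkn2a and Cdkn1c, were at least 2-fold apart without overlap, as were 16.2% of all genes. Among the 15 probe sets, 3 were higher, 8 lower and 4 overlapped.

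**Figure D2:**
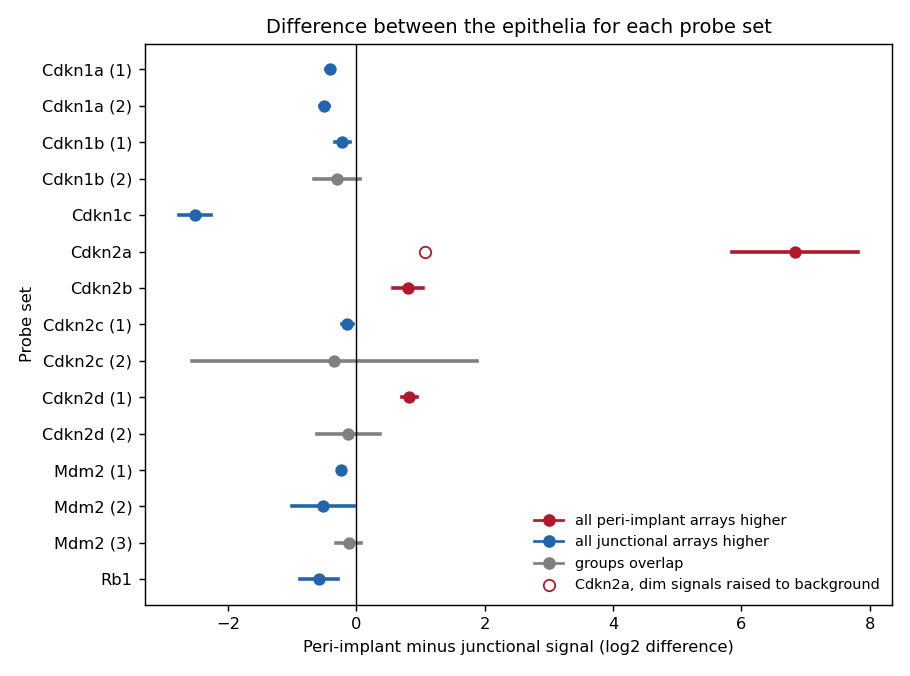
Peri-implant minus junctional signal (log2 difference) for each of the 15 probe sets; points are differences of group means, and lines run from the smallest to the largest difference between single arrays of the 2 groups. Colours give the side on which all arrays of a group lie, and the open circle gives Cdkn2a at 1.06 with dim signals raised to background. On the lower side Cdkn1c has the largest difference, at -2.52.

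The epithelia also differed in markers of other cells, which moved in the same samples as the values above. Here and below, "rose" and "fell" describe genes whose peri-implant signal differed with an adjusted p under 0.05 over all genes in limma with an intensity trend and robust prior. This fit called 12.7% of all genes, 7.39% as higher and 5.34% as lower, while limma's default prior called 0 (smallest adjusted p = 0.0898), with 2861 genes at an unadjusted p under 0.05. Of 7 measured neutrophil markers 5 rose and 0 fell, and their summed linear signal was 38453 to 38725 in junctional and 90062 to 103467 in peri-implant samples, with Itgam and Mmp8 below background on every array. Most of this sum came from S100a8 and S100a9. Their peri-implant means were 15.61 and 15.39 on the log2 scale, beside 10.96 for Cxcr2, the next brightest marker. The junctional means of these genes were 14.81, 13.02 and 9.54 in the same order. Which cells gave the S100a8 and S100a9 signal was not tested. Of 10 macrophage and dendritic cell markers 4 rose and 1 fell, with sums of 7476 to 7513 and 13694 to 14078. Of 8 measured suprabasal and keratinizing markers 1 rose and 4 fell, with sums of 100752 to 101705 and 84940 to 94542, and of 8 basal keratinocyte markers 1 rose and 2 fell, with sums of 185276 to 190266 and 176572 to 213643. For fibroblast markers, 3 of 8 rose and 1 fell, with sums of 45681 to 45745 and 53464 to 53608. The part of these cells in the values of Cdkn2a, Cdkn1c and the other genes was not tested. T and NK cell markers had 1 of 8 rise, with 4 of 8 below background on every array, and all 4 measured B and plasma cell markers were below background on every array. Of 6 measured endothelial markers 0 rose and 0 fell, with sums of 1714 to 2079 and 1437 to 1618. Tek, Vwf and Emcn differed by -0.98, -0.84 and -0.69 without overlap of the arrays. Kdr and Pecam1 had overlapping groups, and Cldn5 was below background on every array.

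The measured chromosome neighbours of Cdkn2a and Cdkn1c are given as a description. Cdkn2a and Cdkn1c were chosen for their differences, so smaller differences of unselected neighbours follow in part from that choice. Cdkn2a had no junctional value above background, and with dim signals raised its difference was 1.06, beside 0.80 for Cdkn2b. Mtap, the methylthioadenosine phosphorylase gene next to Cdkn2a on its other side, read 11.54 and 11.58 on the junctional and 12.06 and 11.80 on the peri-implant arrays. It rose by 0.37 (limma with an intensity trend, adjusted p = 0.0466, and adjusted p = 0.32 with the default prior). Klhl9 and Elavl2, further out, differed by 0.16 and 0.68 and did not pass, with adjusted p = 0.357 and 0.0713 with an intensity trend. Dmrta1 and Ifnb1 were below background on every array.

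Around Cdkn1c, the nearest measured genes were the potassium channel gene Kcnq1 and the transporter gene Slc22a18. Kcnq1 read 8.56 and 8.39 on the junctional and 8.52 and 8.58 on the peri-implant arrays, and Slc22a18 read 7.45 and 7.32 against 7.76 and 7.71. Their differences were 0.075 and 0.36, and neither passed limma with an intensity trend (adjusted p = 0.85 and 0.441). Phlda2, an imprinted gene of the same domain, differed by -0.23 with overlapping groups, and Nap1l4 by 0.095. Cd81, which encodes a tetraspanin, fell by 0.35 (limma with an intensity trend, adjusted p = 0.0493). That call was lost with quantile normalization and with any 1 array left out. It was also lost with the mean over probe sets (adjusted p = 0.0568 in limma with an intensity trend), though the difference of Cd81 itself was unchanged at -0.35.

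**Figure D3:**
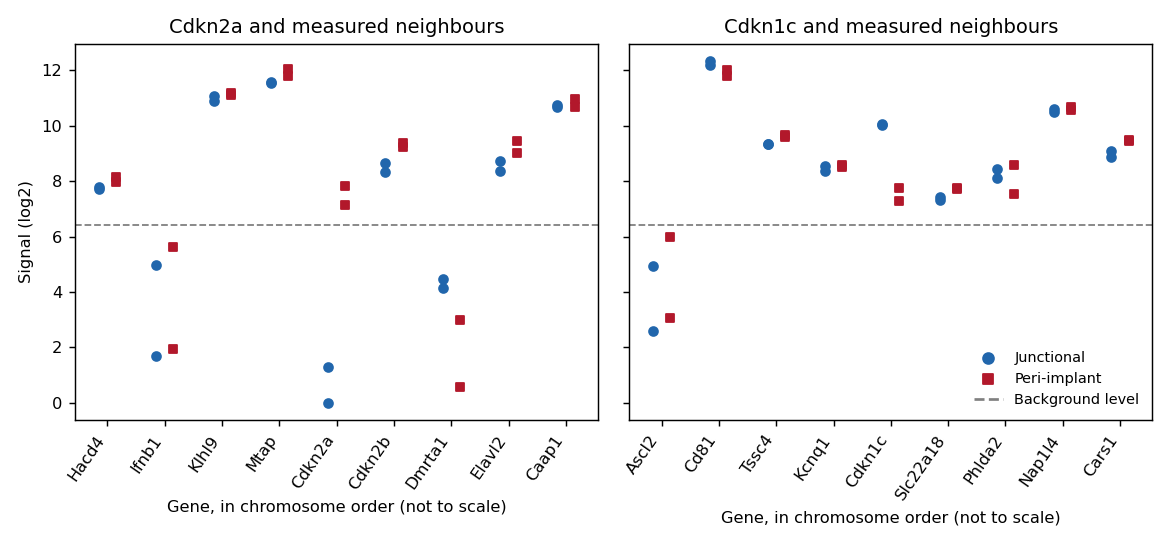
Signal (log2) on each array for Cdkn2a and for Cdkn1c with up to 4 measured genes on each side, in chromosome order and not to scale; circles are junctional and squares peri-implant arrays, and the dashed line is the background level. Mtap and Cdkn2b were higher in peri-implant epithelium beside Cdkn2a, and Kcnq1 and Slc22a18 did not drop beside Cdkn1c.

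Around the inhibitors, 137 of 158 listed partners, regulators and targets were measured, and most did not pass, as was so for all genes. Counting each gene once, 13 rose and 9 fell with an intensity trend. Over all 14217 genes that fit called 7.39% as higher and 5.34% as lower, and these shares stand beside each list count below. With limma's default prior 0 of the 137 passed, and the smallest adjusted p among them was 0.0927. Genes below background in both groups were then left out, a filter that let a gene enter through its higher group alone. In that fit the default prior of limma passed 7 of the 125 genes left, namely Ccl2, Cxcl1, Igfbp5, Il1a, Il1b, Mcm5 and Sesn2. The filter thus depended on the contrast, and the 7 calls are no added support. All 22 calls kept their direction under each alternative tried. With an intensity trend and all 4 arrays, 15 of the 22 passed under every alternative, and Cd81, Cul4b, E2f8, H19, Igf2r, Igfbp5 and Tfdp2 did not. With 1 array left out, 3 of 137 passed without junctional replicate 1, 4 without junctional replicate 2, 6 without peri-implant replicate 1 and 6 without peri-implant replicate 2, and only Cxcl1 and Il1b passed in every one of these fits.

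Among the G1 cyclins and their kinases, which the inhibitors bind, 1 of 12 rose and 0 fell, with a median difference of -0.12. Ccnd3, a D-type cyclin, read 7.68 and 8.43 on the junctional and 9.02 and 9.55 on the peri-implant arrays, and rose by 1.23 (SE 0.28, limma with an intensity trend, adjusted p = 0.0251). The arrays of each group were wide apart, yet the groups did not overlap. Ccne2, Cdk2 and the phosphatase gene Cdc25a had differences of -0.38, -0.43 and -0.95 and did not pass. For Cdc25a the peri-implant arrays lay below background, the value was -0.48 with dim signals raised to it, and the mean over its probe sets gave 0.03.

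Of 14 measured Rb family and E2F genes, 1 rose and 1 fell, with a median of -0.08. E2f8, a repressive E2F, rose from 7.54 ± 0.22 to 8.50 ± 0.25 (adjusted p = 0.0393), and Tfdp2, a dimerization partner of E2F proteins, fell from 7.85 ± 0.30 to 6.68 ± 0.25 (adjusted p = 0.0496, limma with an intensity trend for both). The mean over the probe sets of Tfdp2 gave -0.53, and its call was lost. E2f2 and Lin37 had differences of -0.48 and 0.51 without passing. Of 21 measured genes of proliferation under E2F control, 1 rose and 1 fell, with a median of 0.11. Mcm5, a subunit of the replicative helicase, read 9.78 and 9.64 on the junctional and 10.71 and 10.60 on the peri-implant arrays and rose by 0.94 (SE 0.12, adjusted p = 0.00202). Mki67, which encodes the proliferation antigen Ki-67, fell from 11.96 ± 0.03 to 11.53 ± 0.04 (adjusted p = 0.0131). The DNA helicase subunit Mcm6 and the mitotic kinase Aurkb had differences of 0.52 and 0.47 and did not pass.

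On the p53 side, 0 of 10 measured genes of the p53 family, the damage kinases and the regulators of p53 passed, with a median of -0.16, or -0.04 with dim signals raised to background. Mdm4, the partner of Mdm2, and the ubiquitin ligase Cop1 had differences of -0.35 and -0.26, the deubiquitinase Usp7 -0.28 and the phosphatase Ppm1d 0.50. Of 18 measured p53 target genes, 1 rose and 1 fell, with a median of 0.05. Gadd45a, a stress-induced gene that can also be switched on without p53, read 9.69 and 9.46 on the junctional and 7.67 and 8.39 on the peri-implant arrays and fell by 1.54 on the log2 scale (SE 0.25, adjusted p = 0.00556). Sesn2, which encodes the stress protein sestrin 2, rose from 7.32 ± 0.23 to 8.52 ± 0.20 (adjusted p = 0.0187). Bbc3 and Zmat3 had differences of -0.82 and 1.27 without passing, and that of Zmat3 was 0.56 with dim signals raised to background.

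Regulators of the inhibitors were mostly without a call. In the list of Polycomb and other regulators of the Cdkn2a locus, 2 of 16 rose and 0 fell, with a median of 0.21. Ets2, a transcription factor that can activate p16, rose from 11.78 ± 0.07 to 12.22 ± 0.01 (adjusted p = 0.0105). Id1, which opposes such activation, rose from 11.06 ± 0.06 to 11.43 ± 0.02 (adjusted p = 0.031, limma with an intensity trend for both). The T-box repressors Tbx2 and Tbx3 had differences of 1.08 and 0.82 without passing, or 0.65 and 0.42 with dim signals raised to background, and 0.26 and 0.0085 with the mean over probe sets. Among ubiquitin ligase subunits that turn over Cdkn1 proteins, 1 of 10 rose and 1 fell, with a median of 0.16. Skp1 rose from 13.58 ± 0.11 to 13.92 ± 0.04 (adjusted p = 0.0245), and the cullin Cul4b fell from 9.01 ± 0.23 to 8.29 ± 0.06 (adjusted p = 0.048), though the mean over its probe sets gave -0.12 and the call was lost. Cul4a and Cops5 had differences of 0.38 and 0.36 and did not pass.

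Imprinted genes, the class to which Cdkn1c belongs, had 1 of 22 measured members rise and 3 fall, with a median of 0.30, or 0.00 with dim signals raised to background, where 7 lay below it on every array. Plagl1, an imprinted zinc finger factor, read 12.01 and 12.00 on the junctional and 11.43 and 11.30 on the peri-implant arrays and fell by 0.64 on the log2 scale (SE 0.09, adjusted p = 0.00274). Igf2r, the mannose 6-phosphate receptor, fell from 10.96 ± 0.05 to 10.53 ± 0.17 (limma with an intensity trend, adjusted p = 0.0429). That call was lost with quantile normalization and with the mean over probe sets, which gave -0.32. The noncoding RNA H19 lay below background on both junctional arrays and rose to 7.26 ± 0.44, at least 1.79-fold (limma with an intensity trend, adjusted p = 0.0485). The H19 call was lost with dim signals raised to background and with quantile normalization. It was also lost with the mean over probe sets (limma with an intensity trend, adjusted p = 0.0555), though the difference of H19 itself was unchanged at 1.75.

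Of 14 measured senescence-associated genes, 5 rose and 2 fell, with a median of 0.13. Those that rose were the cytokine genes Il1b, Il1a, Ccl2 and Cxcl1, which attract or activate leukocytes, and Igfbp7. Il1b read 11.83 and 11.79 on the junctional and 13.38 and 13.36 on the peri-implant arrays and rose by 1.56 (SE 0.08, adjusted p = 5.75e-06). Ccl2 rose from 6.41 ± 0.25 to 8.76 ± 0.36, at least 4.8-fold (adjusted p = 0.00197), and Cxcl1 from 10.93 ± 0.17 to 11.82 ± 0.06 (adjusted p = 0.00138). Igfbp5, which binds insulin-like growth factors, fell from 9.45 ± 0.17 to 8.59 ± 0.07 (adjusted p = 0.0144), but the mean over its probe sets gave -0.37 and the call was lost. Its relative Igfbp3, named here as the other gene that fell, did so by 0.45 on the log2 scale. In the same samples the median difference of neutrophil markers was 1.29, or 0.80 with dim signals raised to background, and that of macrophage and dendritic cell markers 0.83 either way, and their part in the cytokine values was not tested. The other 7 measured genes of the senescence list, Lmnb1, Glb1, Hmgb1, Il6, Mmp3, Plaur and Tgfb1, did not pass. Il6 was below background on every array.

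**Figure D4:**
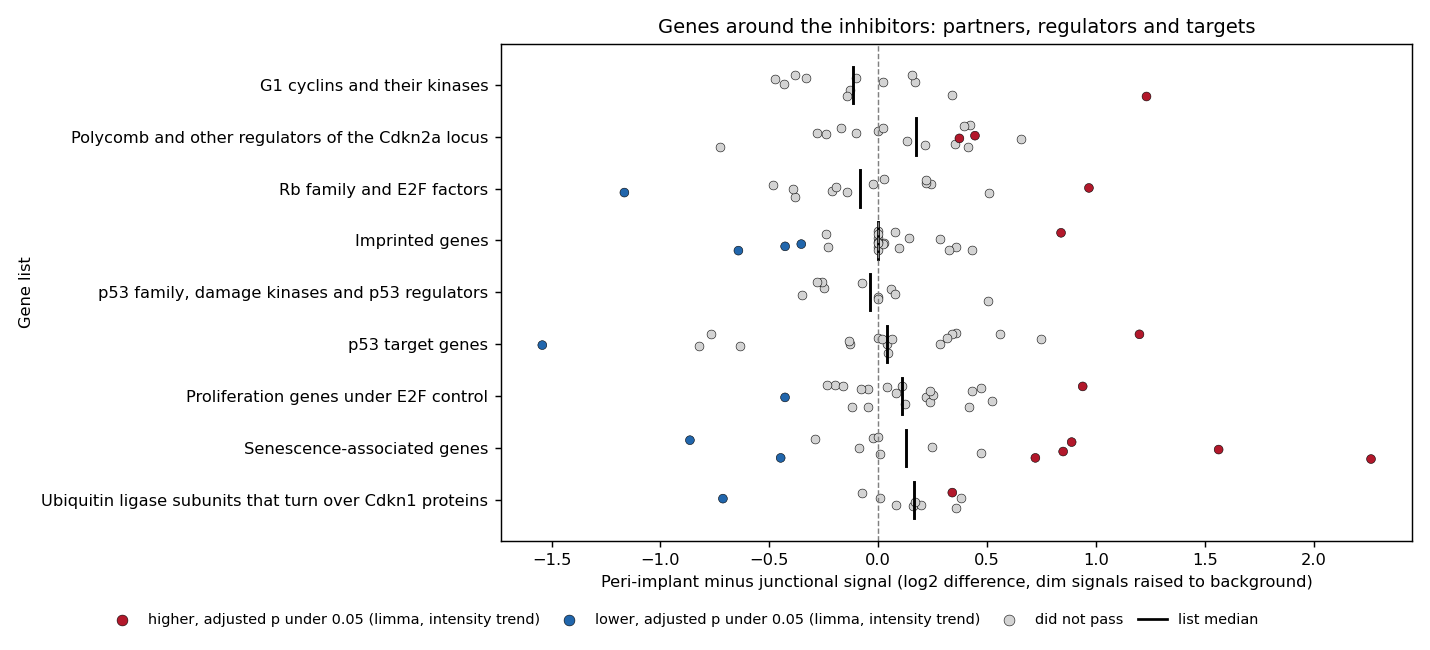
Peri-implant minus junctional signal (log2 difference, with signals below background raised to it) of the measured genes in 9 lists of partners, regulators and targets; each point is a gene, black bars are list medians, and red or blue points rose or fell at an adjusted p under 0.05 (limma with an intensity trend). Most genes are grey and the list medians lie between -0.12 and 0.17, while Ccl2, Il1b, Ccnd3 and Sesn2 lie above 1 and Gadd45a and Tfdp2 below -1.

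By root mean square distance of values centred on each gene's mean over the 4 arrays, the genes most like Cdkn2a among 9962 candidates were Cdkl4, a relative of the cyclin-dependent kinases, Tnfrsf14, a receptor of the TNF family, the homeobox gene Meis2, the small GTPase gene Rhoh and Pcp4, with distances from 0.43 to 0.94. All 5 were below background on both junctional arrays, as was Cdkn2a. Their differences ran from 5.60 to 7.19 on the log2 scale and rest on those dim signals. The genes most like Cdkn1c, at distances of 0.065 to 0.098, were Cyp4v3, the casein gene Csn3, the prostaglandin receptor gene Ptgfr, Kctd4 and the serpin gene Serpinb7. Csn3 read 12.18 and 12.21 on the junctional and 9.35 and 9.73 on the peri-implant arrays, so that peri-implant array 1 was the lower, as for Cdkn1c. Of these, Cyp4v3, Ptgfr and Kctd4 were below background on both peri-implant arrays and Serpinb7 on 1, so their distances and order rest on dim signals. The differences ran from -2.66 to -2.35, but with dim signals raised to background they were -1.12 for Cyp4v3, -1.87 for Ptgfr, -0.86 for Kctd4 and -2.21 for Serpinb7. With 4 arrays in 2 groups, such likeness is a description of the same contrast.

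**Figure D5:**
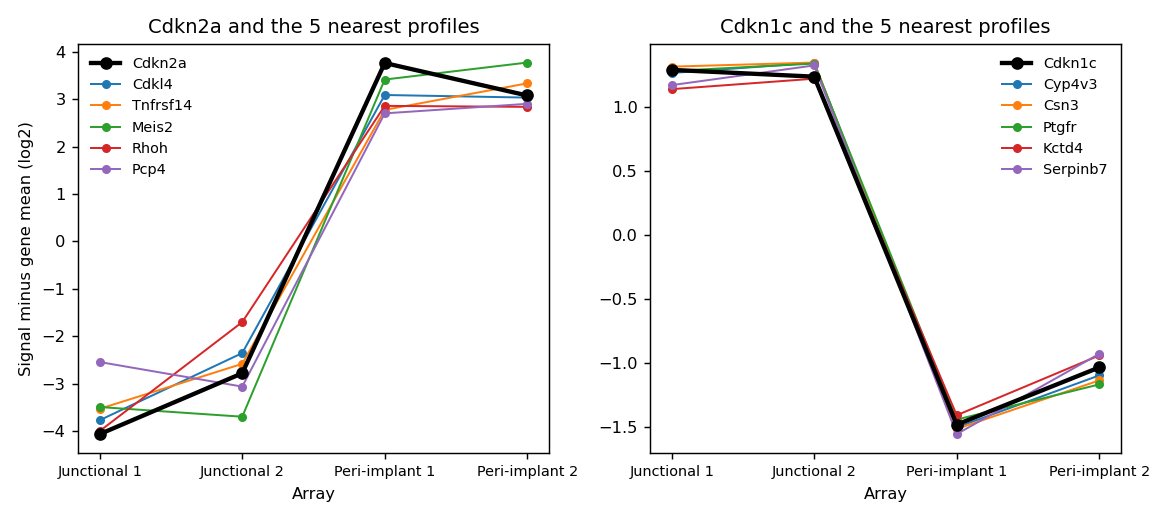
Signal minus the gene's mean (log2) on the 4 arrays for Cdkn2a (left) and Cdkn1c (right), in black, with the 5 genes of nearest profile in colour; lines join the values of a gene and imply no order of the arrays. The profiles like Cdkn1c lie within 0.065 to 0.098 of it by root mean square distance, those like Cdkn2a within 0.43 to 0.94; of these 10 genes Csn3 alone was above background on all 4 arrays.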

How the data were processed

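The deposited values are log2 signals of 31099 probe sets on 4 Affymetrix rat arrays. Per the labels' protocols, RNA of frozen, microdissected sections was extracted (RNeasy Micro Kit), amplified (NuGEN Ovation) and biotin-labelled (NuGEN Encore). The authors' software and normalization were not given in the sources used here. Each array has a trimmed mean linear signal of 500.2 and a floor at log2 0, where 378 to 729 probe sets stand. No array was normalized again.

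Without 57 control probe sets, 20826 carried 1 gene symbol in the platform annotation, 436 several and 9780 none. The probe set of highest mean signal stood for its gene, and symbols were updated by gene identifier. The 2 epithelia were compared with limma 3.58.1 in R 4.3.3 (2 residual degrees of freedom, two-sided, Benjamini-Hochberg over 14217 genes, threshold 0.05), with the default prior and, beside it, an intensity trend and robust prior. For "at least" folds, dim signals were raised to background. The script was tested on simulated data.

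The genes, lists and the second fit were chosen with earlier results of these data known, so none is independent support. From each list, up to 4 genes above background in a group were named, first those past the test with an intensity trend, then by size. For Cdkn2a and Cdkn1c the 5 nearest profiles were named, leaving out unnamed loci and olfactory receptors. Neighbours, motifs and further members of the senescence list were chosen after values were seen. Alternatives were quantile normalization, raised background, a filter on dim genes, the mean of a gene's probe sets, a replicate block and leaving out each array. Start regions came from RefSeq on GRCr8.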

Additional observations from a re-analysis of the deposited data

How the results depend on the processing

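The signs of all 9 gene differences were the same under every alternative tried, and most values moved by less than 1 SD between replicates. Leaving out an array could not change a sign, because the arrays of the 2 groups did not overlap for any of the 9. The genes were also chosen with this contrast in view, so the kept signs are no added support. With dim signals raised to background the Cdkn2a difference was 1.06, and with the mean of a gene's probe sets those of Cdkn2c, Cdkn2d and Mdm2 were -0.25, 0.35 and -0.29. The limma default prior called 0 of 14217 genes, but 351 with dim signals raised, 901 of 10032 when genes below background in both groups were left out, and 1810 with an intensity trend. Fewer and brighter genes entered that filtered fit, and a gene could enter through its higher group alone. For the 137 partners, regulators and targets these counts were 0, 2, 7 of the 125 left in that filtered fit, and 22. With 1 array left out, 241 to 398 of all genes and 3 to 6 of the 137 passed with an intensity trend. The arm left with 1 array is then assumed to vary like the other. With the replicate number as a block, the default prior called 0 genes and the intensity trend 2470, of which 27 were among the 137. The numbers are not known to pair the samples, and deviations of same-numbered arrays correlated at 0.02 over all genes and 0.06 above background. Raising dim signals sets 3780 genes to the same value on every array, which alters the variance prior.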
